A study of Capra hircus with 2 samples.

Results

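miR-126, miR-221 and miR-222 are 3 microRNAs best known from blood vessels, and they are described here in goat natural killer (NK) cells of the uterus and of the blood. Taken was every arm of the goat miRNAs chi-miR-126, chi-miR-221 and chi-miR-222 in a deposited table of miRNAs that the authors called different. This gave 5 of the 590 listed mature miRNAs, namely both arms of miR-126, both arms of miR-221 and the 3p arm of miR-222. One small RNA library came from NK cells of female goat uterus (uNK) and the other from NK cells of female goat peripheral blood (pNK), with no other treatment, strain, age or pregnancy stage in the labels. Neither group has a replicate. The intervals given are exact 95% Clopper-Pearson intervals for counting error in these 2 libraries, and nothing here is a test between uterus and blood.

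A microRNA is cut from a hairpin whose strands (arms) give a 5p and a 3p product, and the mature strand guides the repression of messenger RNAs that match its seed. miR-126 is the classic miRNA of endothelial cells. In human and mouse its hairpin lies in an intron of EGFL7, a gene of the endothelium, and its 3p arm favours vessel growth by repressing SPRED1 and PIK3R2, inhibitors of signalling from growth factor receptors. miR-221 and miR-222 are neighbours that are made from a shared primary transcript and have the same seed. They repress the receptor KIT and the cell cycle inhibitor CDKN1B in human cells, and are found in endothelium, smooth muscle and blood progenitors.

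The vascular miRNAs did not go one way. miR-126 was higher in uNK and miR-221 and miR-222 were lower there. On the scale of the deposited expression values, miR-126 was about as much higher as miR-221 was lower, and miR-222 was lower still. Of the 5 arms, 2 were at least 2-fold higher in uNK, against a background of 36.1% of all listed miRNAs. The other 3 were at least 2-fold lower, against a background of 62% of all listed miRNAs. Among annotated goat miRNAs alone these backgrounds were 50.6% and 45.9%. Since the table holds only called miRNAs, a member past 2-fold is no result in itself, and the sizes and ratios are what the data show.

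miR-126-3p had 49626 reads in pNK and 314233 reads in uNK. In reads per 1000000 reads of a library (RPM), this is 1651 in the blood library and 9887 in the uterine one, 5.99-fold higher in uNK (5.93 to 6.05). The uterine library was far above that of blood, and the arm went from rank 27 of the 314 annotated listed miRNAs in pNK to rank 5 in uNK. It took 0.347% of the listed reads of pNK (0.344 to 0.350%) and 2.64% of those of uNK (2.63 to 2.65%).

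miR-126-5p, the less abundant arm of the same hairpin, was read 3557 times in pNK and 21203 times in uNK. Its level was 118 RPM against 667 RPM, 5.64-fold higher in uNK (5.44 to 5.84). Both arms of miR-126 were thus higher in the uterine library by nearly the same factor. Summed, they came to 1769 RPM in the blood library and 10555 RPM in the uterine library, 5.97-fold higher (5.91 to 6.02).

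miR-221-3p had 50868 reads in pNK and 9417 in uNK, or 1692 RPM and 296 RPM. It was 5.71-fold lower in uNK (5.59 to 5.84) and went from rank 26 to rank 52 among annotated listed miRNAs. miR-221-5p, the minor arm, was read 435 times in pNK and 48 times in uNK, or 14.5 RPM and 1.51 RPM, 9.58-fold lower (7.10 to 13.2). Its interval is wide because the uterine library held so few of its reads.

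miR-222-3p had 67199 reads in pNK and 6467 in uNK, or 2235 RPM and 203 RPM. It was 11.0-fold lower in uNK (10.7 to 11.3) and went from rank 23 to rank 63. On the RPM scale this was the largest difference among the 5 arms, with an interval inside that of miR-221-5p. Summed over their 3 listed arms, miR-221 and miR-222 came to 3942 RPM in the blood library and 501 RPM in the uterine library, 7.86-fold lower (7.73 to 7.99). The 5p arm of miR-222 is not among the listed miRNAs and nothing is said of it.

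**Figure D1:**
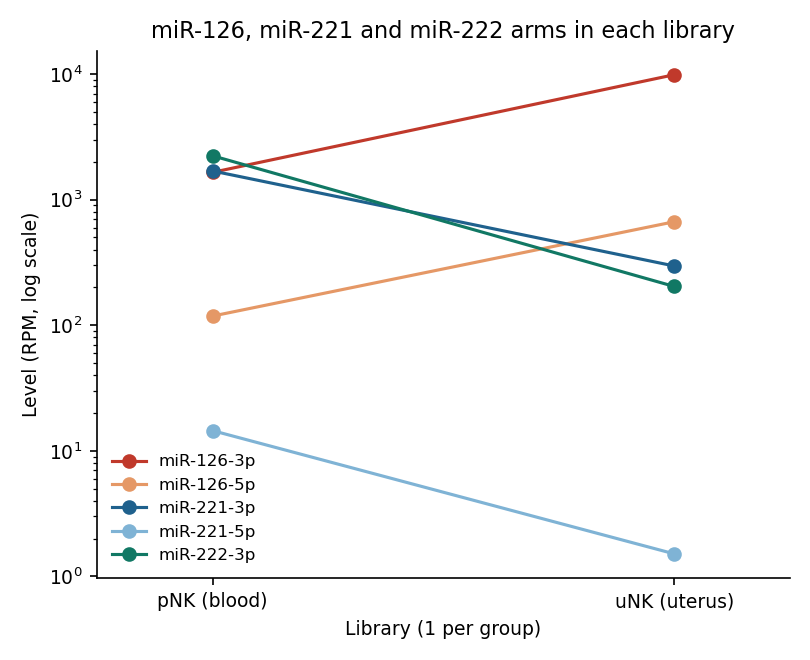
Level of each listed arm of miR-126, miR-221 and miR-222 in RPM (log scale) in the pNK and the uNK library, 1 library per group; lines join the values of one arm. The 3p arms lie between 1651 and 2235 RPM in pNK, whereas in uNK miR-126-3p is at 9887 RPM and miR-221-3p and miR-222-3p are at 296 and 203 RPM.

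The sizes of these differences depend on how the libraries are scaled, and the directions did not under the scalings run. miR-126-3p was 3.77-fold higher in uNK when scaled to the median ratio of the listed miRNAs and 10.02-fold higher with TMM factors (trimmed mean of M values, from edgeR). miR-221-3p was 9.07-fold lower with the median ratio and 3.41-fold lower with TMM. miR-222-3p was 17.5-fold lower with the median ratio and 6.57-fold lower with TMM. With TMM the difference of miR-126-3p was thus larger than that of miR-222-3p. These alternative scalings rest only on miRNAs called different. In bulk RNA, fewer cells of a type and less RNA per cell cannot be told apart.

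**Figure D2:**
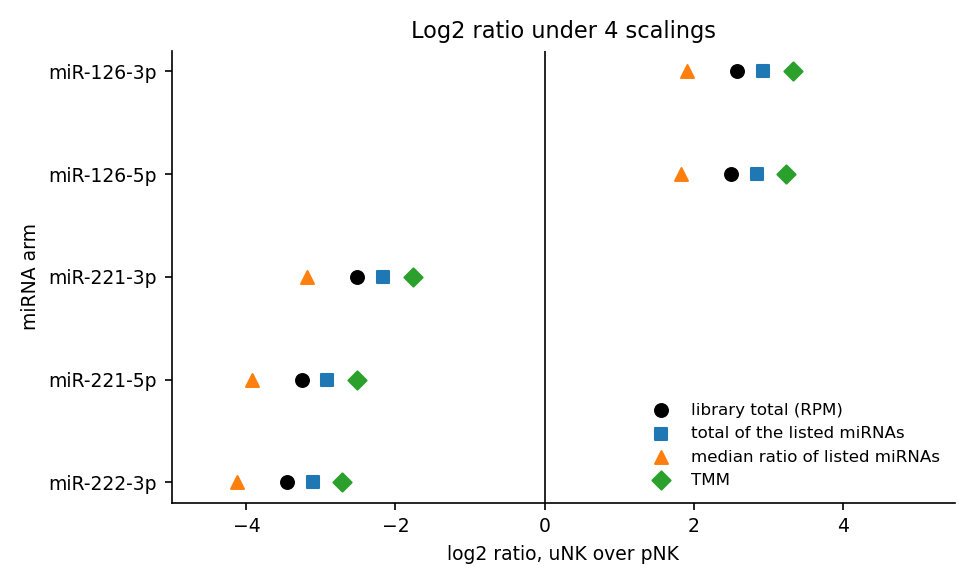
Log2 ratio of uNK over pNK of each arm (rows) under 4 scalings between the 2 libraries, 1 library per group; positive values are higher in uNK. Both arms of miR-126 stay right of 0 and the arms of miR-221 and miR-222 left of 0, and miR-126-3p ranges from 1.91 to 3.32.

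On the RPM scale, many listed miRNAs differed more than these did. Of the 137 annotated miRNAs higher in uNK with at least 100 reads in the higher library, 104 had a larger change than miR-126-3p, and the median of the 137 was 11.8-fold. Of the 117 annotated miRNAs lower in uNK under the same minimum, 75 had a larger change than miR-221-3p and 46 a larger one than miR-222-3p, and their median was 9.40-fold. Counted without scaling for library size, the pNK library held 15.8 reads of miR-126-3p for every 100 in uNK. The uNK library held 18.5 reads of miR-221-3p and 9.62 reads of miR-222-3p for every 100 in pNK.

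**Figure D3:**
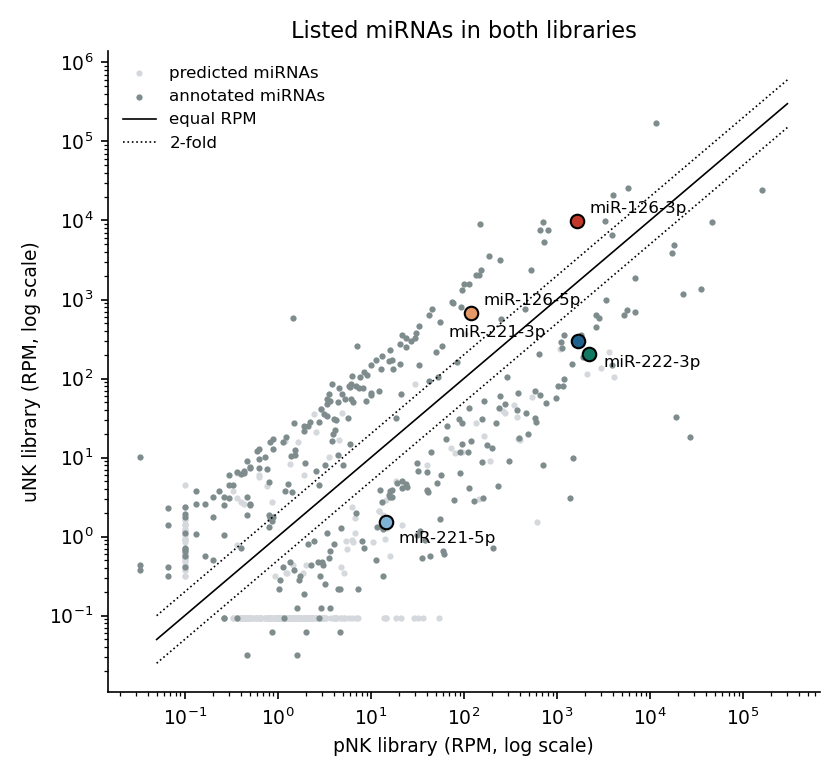
Level of each of the 590 listed miRNAs in the pNK library (horizontal) and the uNK library (vertical), in RPM on log scales; an miRNA with no read in a library is drawn at the level of 3 reads there. The empty band around equal RPM reflects that only called miRNAs are listed; miR-126-3p is among the highest points of uNK, and miR-221-3p and miR-222-3p lie side by side below the band.

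Ratios within a library do not depend on the scaling between libraries. In pNK there were 0.420 reads of miR-126-3p for each read of miR-221-3p and miR-222-3p together (0.416 to 0.425). In uNK there were 19.8 (19.5 to 20.1), a ratio 47.1 times that of pNK. In the blood library the 3 major arms were close to each other in level, with miR-126-3p at 0.976 of the level of miR-221-3p (0.964 to 0.988) and at 0.738 of miR-222-3p (0.730 to 0.747). In the uterine library miR-126-3p was 33.4 times as frequent as miR-221-3p (32.7 to 34.1) and 48.6 times as frequent as miR-222-3p (47.4 to 49.8). How well a given miRNA is captured in a library differs between sequences, so the change of such a ratio between libraries says more than its level.

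The balance of miR-222 to miR-221 also differed between the libraries. In pNK there were 1.32 reads of miR-222-3p for each read of miR-221-3p (1.31 to 1.34). In uNK there were 0.687 (0.665 to 0.709). Since capture differs between sequences, these reads do not tell which miRNA was the more abundant. The ratio was 1.92 times lower in uNK, beyond counting error. In RefSeq's table of goat genes (assembly ARS1.2), MIR222 and MIR221 are adjacent with no annotated gene between them. Across 67 pairs of adjacent miRNA genes within 10 kb and with at least 100 reads in the higher library, the log2 ratios of the partners differed by a median of 0.42. For miR-221 and miR-222 they differed by 0.94, and 15 of the 67 pairs differed by more. Each gene was represented by its listed arm with the most reads, so an unlisted arm could not be used. The widest pair, miR-23b-5p with miR-27b-3p at 5.58, set a 5p arm against a 3p arm. These pairs share genes and are not independent, and the comparison is a description. Many of them follow one another in long runs of neighbouring genes, such as that from miR-495 to miR-382. The median thus rests in large part on a few loci.

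The arms of miR-126 differed little in their proportions, though by more than counting error. The 5p arm made up 6.69% of the miR-126 arm reads in pNK (6.48 to 6.90%) and 6.32% in uNK (6.24 to 6.40%). The log2 ratio of 5p over 3p, with 0.5 reads added to each arm, was -3.80 in pNK and -3.89 in uNK. Both arms could be compared for 94 annotated precursors, using a minimum of 10 reads for each arm over both libraries. Their median absolute difference between the libraries was 1.11 log2 units, and miR-126, at 0.09, had the sixth smallest. In miR-221 the 5p arm made up 0.848% of the arm reads in pNK (0.770 to 0.931%) and 0.507% in uNK (0.374 to 0.672%). Its log2 ratio of 5p over 3p went from -6.87 to -7.60, a difference of 0.73, which ranked 29 of the 94 from the smallest. In the ARS1.2 gene table MIR126 lies within EGFL7, as in human and mouse.

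**Figure D4:**
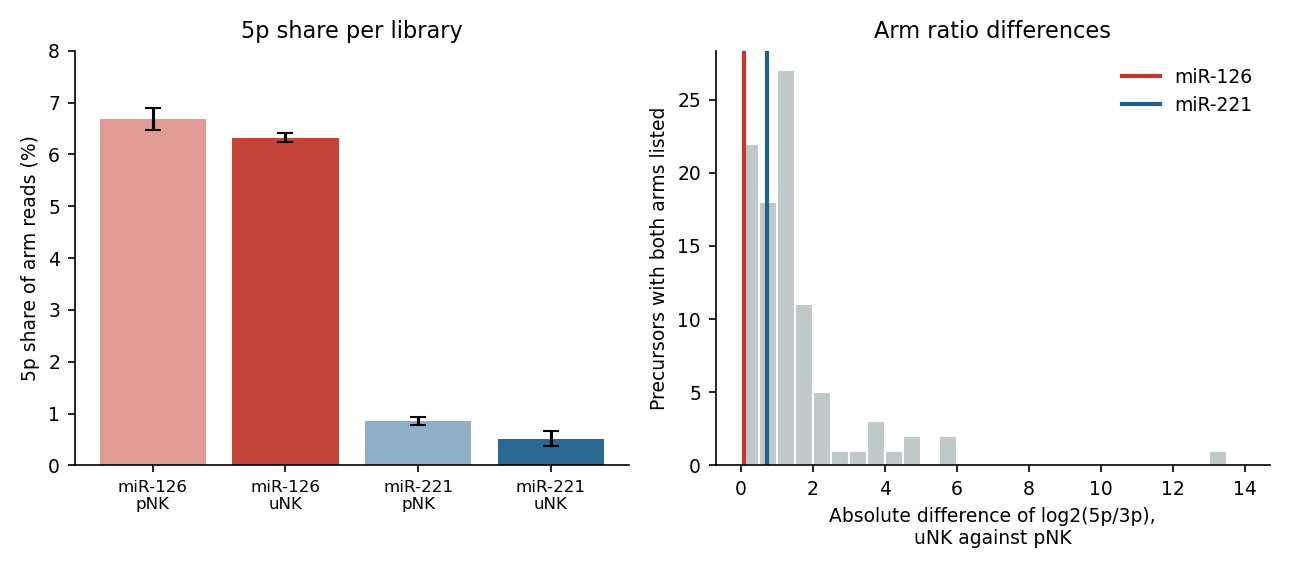
Left, share of the 5p arm in the arm reads of miR-126 and miR-221 in each library (bars, in percent) with exact 95% intervals for counting error; right, histogram of the absolute difference of log2(5p/3p) between the libraries over 94 precursors, with miR-126 and miR-221 as lines. The miR-126 shares are 6.69% and 6.32%, and its difference of 0.09 lies at the low end of the histogram.

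The annotated miRNAs whose log2 ratio was nearest to that of each member were found among those with at least 100 reads in the higher library, over the 2 libraries. For miR-126-3p they were miR-365-3p at 5.87-fold higher in uNK (5.16 to 6.71), miR-2411-3p at 6.11-fold (3.96 to 9.82) and miR-874-3p at 6.28-fold (5.56 to 7.11). For miR-126-5p they were miR-450-5p, miR-409-3p and again miR-365-3p, at 5.51-fold to 5.87-fold. None of these reached the abundance of miR-126-3p.

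For miR-221-3p the nearest were miR-1307-3p, miR-342-5p and miR-21-3p, the minor arm of miR-21, at 5.62-fold to 5.79-fold lower in uNK. For miR-221-5p they were miR-1343, miR-155-5p and miR-15b-3p, at 9.48-fold to 9.61-fold lower. For miR-222-3p they were miR-20a-5p, a member of the miR-17-92 cluster, miR-378-5p and miR-25-5p, at 10.8-fold to 11.2-fold lower. With 2 libraries, likeness means only a like ratio.

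Other miRNAs studied in endothelium or vessel growth went both ways, as did the listed miRNAs as a whole, so the split is no result about vessels in itself. Of a list of 46 such miRNAs that includes the 3 described here, 38 had at least 1 listed arm, giving 61 arms. In uNK 27 arms were higher and 34 lower, 26 and 34 of them by at least 2-fold. Of all listed miRNAs, 36.1% were at least 2-fold higher and 62% at least 2-fold lower. Among annotated ones, to which every arm of the list belongs, these shares were 50.6% and 45.9%. The arms of the list had a median log2 ratio of -1.76. The median log2 ratio over all 590 listed miRNAs, 224 of them higher and 366 lower, was -2.20. Over the 314 annotated ones, 170 of them higher and 144 lower, it was 1.15. Without miR-126, miR-221 and miR-222 the list held 25 higher and 31 lower arms.

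The 8 most abundant arms of the list were miR-143-3p, miR-21-5p, miR-27a-3p, miR-16a-5p, miR-27b-3p, miR-23a, miR-126-3p and miR-16b-5p. Higher in uNK were miR-143-3p, a miRNA of smooth muscle that stood at 169065 RPM in uNK, miR-27b-3p at 20790 RPM in uNK against 3964 RPM in pNK, and miR-126-3p. Lower in uNK were the other 5, among them miR-23a, with 17427 RPM in the blood library and 3842 RPM in the uterine one. Summed over its 61 arms the list came to 298003 RPM in the blood library and 264929 RPM in the uterine one.

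Marker miRNAs of other cell types also differed between the libraries, as does every miRNA in this table of called ones. Of the 314 annotated listed miRNAs, 170 were higher in uNK and 144 lower. All 9 listed arms that mark smooth muscle and stroma were higher in uNK, and their summed level went from 12158 RPM in pNK to 185567 RPM. These arms come from 5 miRNAs, of which miR-143 and miR-145 have neighbouring genes, as have miR-199a and miR-214. All 5 epithelial miRNAs were higher, from 257 RPM to 3592 RPM, and so were all 4 muscle miRNAs, from 107 RPM to 1329 RPM. All 4 listed arms of the red cell list, those of miR-451 and miR-144, were higher, from 3258 RPM to 9817 RPM, although miR-451-3p had only 6 reads in pNK and 16 in uNK, with an interval of its fold from 0.938 to 7.87. None of these arms was at 0 in either library. miR-126 is the only miRNA listed for endothelium alone. miR-221 and miR-222, listed for endothelium and blood progenitors together, went the other way and were 7.86-fold lower in uNK when summed. No endothelial marker outside these described miRNAs was available. The part of these cell types in the level of miR-126 was not tested.

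In the other direction, both listed arms of the granulocyte, monocyte and platelet list, those of miR-223, were lower in uNK, with 28632 RPM in the blood library and 21.1 RPM in the uterine one. All 4 listed arms of the lymphocyte list were lower, from 20518 RPM to 186 RPM. Its leading miRNA, miR-150, known from mature lymphocytes, was read 572771 times in pNK and 1023 times in uNK, and miR-181b-3p had 8 reads in pNK and 0 in uNK. Without miR-150 the list went from 1466 RPM to 153 RPM, 9.56-fold lower in place of 111-fold, a comparison chosen after the data were seen. The related miR-181c-5p and miR-181d, which are not on the list and were chosen after their values were seen, were higher in uNK, at 106 RPM against 53.4 RPM and at 63.2 RPM against 20.9 RPM. NK cells are lymphocytes, and the 4 listed arms of this list were lower in the library labelled as uterine NK cells. The table holds only called miRNAs, with no arm of miR-181a and only the 3p arm of miR-181b, so the list is seen in part. No miRNA of the lists marks NK cells alone. The part of these cell types in the levels of miR-221 and miR-222 was not tested.

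**Figure D5:**
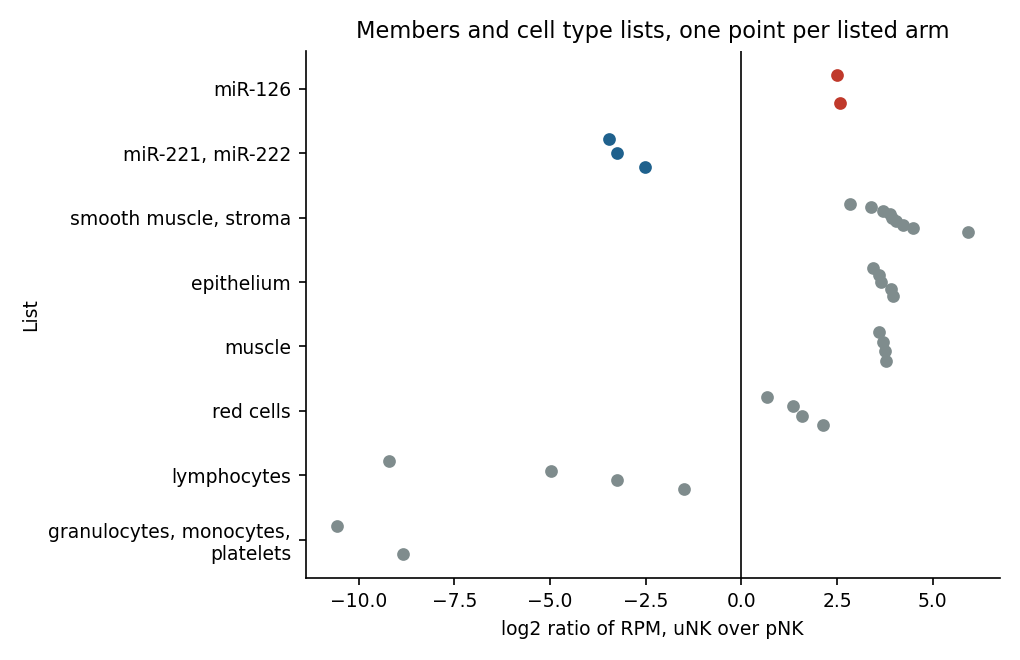
Log2 ratio of RPM, uNK over pNK, of each listed arm (points) of miR-126, of miR-221 and miR-222, and of the cell type lists; an arm with no read in uNK is drawn at the level of 3 reads. miR-126 lies above the red cell arms and below the stromal, epithelial and muscle arms, and miR-221 and miR-222 lie among the less changed lymphocyte arms.

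Set against these markers inside each library, miR-126-3p was lower relative to the stromal and epithelial miRNAs in uNK than in pNK, and higher relative to the red cell miRNA. It had 0.143 reads for each read of miR-143-3p in pNK (0.142 to 0.145) and 0.0585 in uNK (0.0583 to 0.0587), a ratio 2.45 times lower. Against miR-200b, an epithelial miRNA, the ratio went from 16.3 (15.8 to 17.0) to 6.27 (6.21 to 6.32). Against miR-451-5p, the main miRNA of red cells, it went from 0.508 (0.502 to 0.513) to 1.009 (1.004 to 1.014). The fold of miR-126 thus lay between those of the red cell and the stromal markers.

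miR-221-3p and miR-222-3p were less reduced in uNK than miR-223-3p and miR-150, the most abundant miRNAs of the myeloid and the lymphocyte list. This did not hold for every lymphocyte miRNA. miR-221-3p had 0.0621 reads for each read of miR-223-3p in pNK and 16.4 in uNK (15.1 to 17.9). For each read of miR-150 it had 0.0888 reads in pNK and 9.21 in uNK (8.63 to 9.83). The corresponding ratios of miR-222-3p to miR-150 were 0.117 in pNK and 6.32 in uNK (5.92 to 6.76). Against miR-155-5p, which acts in the activation of lymphocytes and was 9.55-fold lower in uNK, miR-221-3p went from 1.16 (1.14 to 1.17) to 1.93 (1.867 to 2.001). miR-222-3p went the other way, from 1.53 (1.51 to 1.55) to 1.33 (1.28 to 1.38), and was thus more reduced than miR-155-5p. In the blood library miR-223-3p and miR-150 far outnumbered both, and in the uterine library both outnumbered miR-223-3p and miR-150.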

How the data were processed

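Small RNA was sequenced from 1 library of uterine and 1 of blood NK cells of female goats, after Trizol extraction per the labels' protocols. For the aligner, counting tool, genome build, annotation and number of animals, the sources used here give nothing. The deposited table, named for DEGseq and a filter on differential expression, holds read counts per mature miRNA, RPM values by the authors, the authors' log2 ratio, and a p-value and q-value per the file headers. The p-values and q-values compare 2 libraries, not the conditions, and are not printed. Count over RPM value gave library totals of 30063448 reads (pNK) and 31780927 reads (uNK), of which the listed miRNAs took 47.5% and 37.4%.

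Folds are ratios of counts over these totals. A count of 0 was set to 3 reads (0.0998 RPM in pNK and 0.0944 RPM in uNK). Intervals and floors cover counting error only, since each group has 1 library. No molecular identifiers are mentioned, so copies of the same molecule could not be told apart and the intervals may be too narrow. Code for folds and intervals was tested on simulated data. The members and lists were chosen with earlier results of these data known. Named were all member arms, the 3 nearest annotated miRNAs per arm by log2 ratio, and the 8 most abundant arms of the vessel list; a further part of the rule, on shared seeds, was not applied. The red cell, myeloid and lymphocyte lists also held miR-486, miR-142 and miR-181a, of which no arm is listed. Of 220 annotated miRNA names, 217 were placed at 1 locus of ARS1.2, a gene table used only for names and neighbours. Alternatives were scaling to the listed total, by the median ratio or by TMM (edgeR 4.0.16, R 4.3.3), pseudocounts, count filters, annotated miRNAs alone, and other choices of arms. Python 3.11.15, numpy 2.4.6, pandas 2.3.3, scipy 1.17.1 and matplotlib 3.10.9 were used.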

Additional observations from a re-analysis of the deposited data

How the results depend on the processing

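No paired analysis was possible because there is a single library of each kind, which also kept any from being left out. No log2 ratio of a member, and no median of the vessel list, changed sign under the alternatives run. Of 97 alternative values, 55 stayed within the counting interval of the reported value (for counts, within 1.5 times, and for a list's median within 0.1) and 42 moved. In the order miR-126-3p, miR-126-5p, miR-221-3p and miR-222-3p, the log2 ratios were 2.93, 2.84, -2.17 and -3.11 when scaled to the listed total. They were 1.91, 1.83, -3.18 and -4.13 under the median ratio, and 3.32, 3.24, -1.77 and -2.72 under TMM. The authors' deposited log2 ratios were 2.93, 2.84, -2.17 and -3.11. Each lay 0.346 above the ratio of the deposited expression values. To the digits shown they equal those scaled to the listed total. For miR-221-5p the log2 ratio was -3.93 with the median ratio, -2.52 with TMM, and -2.62 and -1.58 with pseudocounts of 1 and 5 RPM. For the summed arms of miR-126, of miR-221, and of miR-221 with miR-222 it was 2.92, -2.17 and -2.63 for the listed total. It was 1.91, -3.19 and -3.64 under the median ratio, and 3.32, -1.78 and -2.23 under TMM. Each scaling shifts all values alike by its construction. The median of the vessel list was -1.41 for the listed total, -2.42 under the median ratio, -1.01 under TMM, and -1.64, -1.49 and -0.47 with pseudocounts of 0.5, 1 and 5 RPM. Taking 1 arm per miRNA left 16 higher and 22 lower. Of all listed miRNAs, 213 were at least 2-fold higher and 366 lower; with a minimum of 100 reads these were 148 and 182. Among annotated miRNAs alone the balance turned, with 159 higher and 144 lower. With all arms, miR-126 over miR-221 and miR-222 was 0.449 in pNK and 21.1 in uNK. Depth limits miR-221-5p, with 48 reads in uNK.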
